A study of Rattus norvegicus with 6 samples.

Results

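The genes described here make cholesterol and fatty acids or control that synthesis. The list held 31 genes, and 30 of them were found among the 14217 genes that had at least 1 probe set of their own in the array annotation. The annotation gave Hmgcs1 no probe set under its symbol alone, so that it is not analysed here. The members were chosen by symbol, and each gene is represented by the probe set with the highest mean log2 signal over the 6 arrays. The sterol branch held 22 genes and the fatty acid branch 8.

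Cells make cholesterol from acetyl-CoA through mevalonate and squalene, and they make fatty acids from the same precursor through malonyl-CoA. Transcription of both sets of enzymes is driven by SREBP factors, encoded by Srebf1 and Srebf2, which Scap carries out of the endoplasmic reticulum when sterols are scarce and which the Insig proteins hold back when sterols are plentiful. In the ovary, cholesterol is a membrane component and the starting material of steroid hormones, and oocytes of growing follicles are known to receive cholesterol products from the granulosa cells around them.

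RNA came from ovaries of 4-day-old female Sprague-Dawley rats, kept as whole organs on floating filters for 48 h. The control ovaries received no factor, and the others received recombinant human NT3, a neurotrophin, at 50 ng/ml. All cultures shared a medium with BSA, Albumax (a lipid-rich albumin preparation), ascorbic acid, transferrin and antibiotics. There were 3 control and 3 NT3 samples, each a pool of 2 to 3 ovaries on its own 1-colour Affymetrix array, labelled as biological replicates without naming animals or litters. The p-values therefore reflect the spread among these 6 samples and no more. The number of arrays limits the precision of every value. In such whole-organ RNA, fewer cells of a type and less RNA per cell cannot be told apart.

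Signals are the authors' MAS5 values on a linear scale in arbitrary units, and every array had a trimmed mean of 210.1. Control replicate 2 stood apart, with a 3′ to 5′ signal ratio of 6.83 for beta-actin against 2.42 to 2.91 on the other arrays. Log2 fold changes without it are therefore given where they turned the sign or moved by over 1.5 times. The summed signal of 7 oocyte markers was 11621 to 12402 in control and 9941 to 12491 in NT3, and that of 8 granulosa markers 6022 to 7025 and 5820.1 to 6733. The zona pellucida gene Zp3 had 3544 to 4500.5 and the granulosa gene Foxl2 479 to 766. Single markers varied more between arrays. The oocyte genes Kit and Bmp15 had 23.2 and 53.4 on control replicate 2, against 66.7 to 103 and 128 to 240.5 elsewhere, and NT3 replicate 2 was lowest for 4 of the 7 oocyte markers. The median log2 fold change of the oocyte markers was -0.042, and -0.33 with 6 of 7 lower when control replicate 2 was left out. Of 15 listed adipocyte markers, which would come with attached fat and also make lipid, 14 were found. Their summed signal was 796 to 985 in control and 777 to 1002 in NT3, and the defining markers Adipoq and Lep lay at 10.7 to 37.3 and 1.10 to 3.00, below the signal of 41.3 required for testing. The 7 markers that passed included Lpl, at 231 to 321, Pnpla2, at 129 to 183, Cidea, at 82.5 to 109, Lipe, at 53.6 to 112, and Fabp4, at 15.0 to 135. Of the 14 markers, 6 were higher and 8 lower in NT3, or 5 and 9 without control replicate 2. Log2 fold changes were -0.83 for Fabp4, and -0.75 for Adipoq and 0.71 for Plin4 at low signal. In Plin1 and Pck1, also below the filter, every NT3 array lay below every control, at -0.66 and -0.36. Of 11 macrophage and leukocyte markers 9 were higher in NT3, where 46.8% of all genes were, and 7 without control replicate 2. In 2 of the 11, Ptprc and Ctss, every NT3 array lay above every control, where 5.74% of genes tested had no overlap. Their summed signals over the 11 markers were 4174 to 4909.8 in control and 4174 to 5440.4 in NT3. The part of these cell types in the results below was not tested.

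No gene of sterol or fatty acid synthesis passed the test between NT3-treated and control ovaries. Squalene epoxidase (Sqle) and the sterol regulator Srebf2 had the lowest p-values, and both had lower means with NT3, by 1.21-fold and 1.28-fold. In the sterol branch 13 of 22 genes had a higher and 9 a lower mean in NT3, with a median log2 fold change of 0.028. In the fatty acid branch 2 of 8 were higher and 6 lower, with a median of -0.060. Over all 14217 genes the median was -0.013, and 46.8% were higher.

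The test was limma on log2 signals over the 18625 probe sets whose mean signal passed the filter, with Benjamini-Hochberg adjustment. It called 0 of the 29 members tested, against 0 of 10600 genes (0%), at an adjusted p under 0.05. The adjusted p was 1.00 for each of the 29. At an unadjusted limma p under 0.05 the count was 0 of 29, where 1.17% of the genes had such a p (0.472% higher and 0.698% lower in NT3) and 1.29% of all tested probe sets. In 0 of the 29 did all NT3 arrays lie on 1 side of all control arrays, against 5.74% of genes (2.41% above and 3.33% below). Fads2 lay below the filter and was not tested.

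The precision allowed moderate changes to be bounded. Among the members the log2 fold changes had a median standard error of 0.16, as they had over all genes tested. For 26 of the 29 members the 95% interval stayed within 1.5-fold in either direction, against 72.3% of all genes tested, and for all 29 it stayed within 2-fold, against 96.3%. The members whose interval reached beyond 1.5-fold were Srebf2, Stard4 and Scd. Smaller differences than these intervals hold could not be told from none, and intervals around 0 do not show that the groups were alike.

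**Figure D1:**
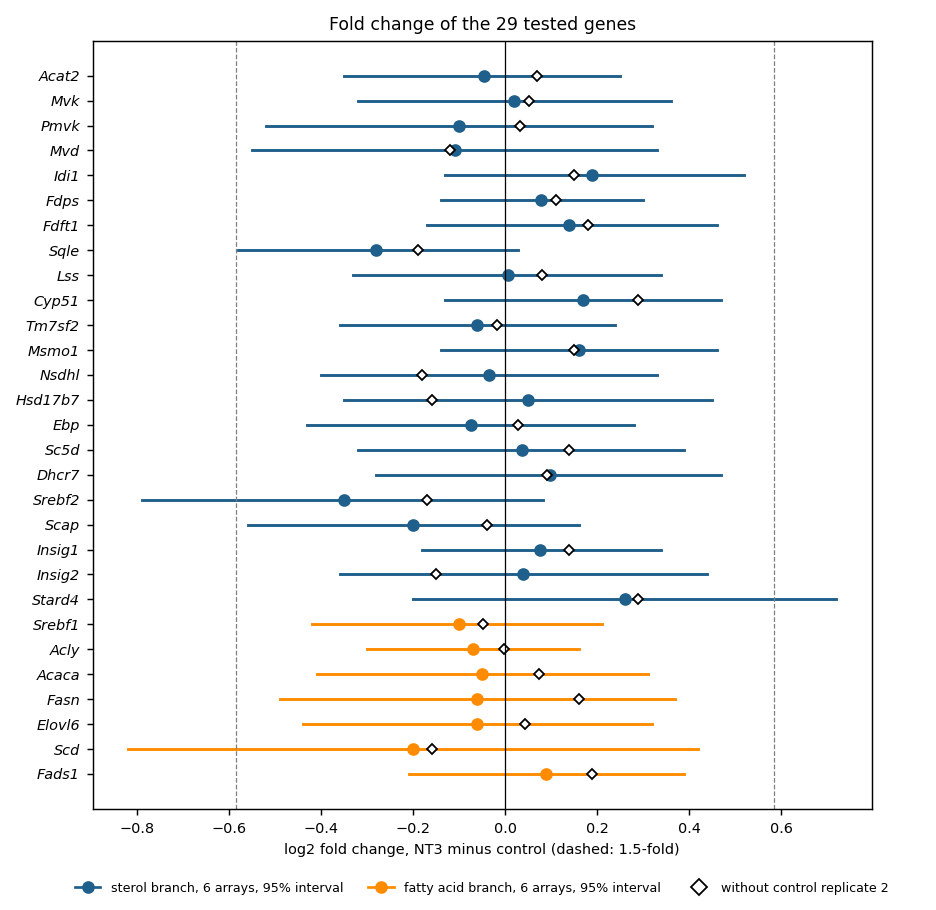
Log2 fold change of the 29 tested genes (x axis, NT3 minus control), with filled points for all 6 arrays, lines for the 95% limma interval, open diamonds for the value without control replicate 2, and dashed lines at 1.5-fold. Every interval spans 0, and those of Srebf2, Stard4 and Scd cross a dashed line.

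Srebf2 and the sterol enzyme gene Cyp51 each hold upstream the core of the sterol regulatory element, the sequence that SREBP factors bind. The mean of Cyp51 was higher and that of Srebf2 lower in NT3, though neither gene passed the test. For these reasons their upstream sequences are shown. Both are 180 bases that end just before the annotated start of transcription, from RefSeq in build GRCr8, plus strand, at chr7:115543127-115543306 for Srebf2 and chr4:30991513-30991692 for Cyp51. Capitals mark matches on either strand to TCACNCC (the core), CCAAT (the box bound by NF-Y) and GGGCGG (the box bound by Sp1).
Srebf2: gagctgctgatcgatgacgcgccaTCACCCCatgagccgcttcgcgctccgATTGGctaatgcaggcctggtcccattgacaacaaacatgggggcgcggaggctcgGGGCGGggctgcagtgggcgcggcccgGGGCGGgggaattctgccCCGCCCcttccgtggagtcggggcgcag
Cyp51: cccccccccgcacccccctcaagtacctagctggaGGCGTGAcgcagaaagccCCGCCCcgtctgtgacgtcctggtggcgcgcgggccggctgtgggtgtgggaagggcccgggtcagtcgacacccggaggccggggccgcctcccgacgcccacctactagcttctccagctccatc
In Srebf2 the core began 156 bases before the start on the plus strand, with a CCAAT box at 129. In Cyp51 it lay on the minus strand at 145, next to a GC box at 127.

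Promoters of 23 of the 30 members were matched by gene identifier, and the 250 bases before the start were searched on both strands. Sqle was among the members without a matched promoter, so that it was not searched. The full sterol regulatory element, with 1 base left free, occurred in 0 of 23, against 0.222% of 27457 rat promoters. Its core TCACNCC, which lies within the full element, occurred in 5 of 23 (Acat2, Mvd, Cyp51, Msmo1 and Srebf2), or 21.7%, against 12.4%, and 13.4% of the promoters of 8843 genes with a tested probe set. The E-box CACGTG was found in Sc5d, Scap and Insig1, or 13.0%, against 5.77% and 8.57%. CCAAT occurred in 17 of 23, or 73.9%, against 34.2% and 36%. GGGCGG occurred in 19 of 23, or 82.6%, against 32.3% and 60.1%. A match is a run of letters and not a shown binding site.

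Signals of single genes are given in the order of replicates 1, 2 and 3, first for control and then for NT3. Levels are not compared between genes, since each probe set has its own response.

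In the mevalonate steps, which turn acetyl-CoA into the isoprenoid units of sterols, 3 of 6 genes had higher and 3 lower means with NT3, or 5 and 1 without control replicate 2. Idi1, the isomerase that supplies the reactive isoprenoid unit, had 937, 882 and 984 in control and 1191, 1199 and 853 in NT3. NT3 replicates 1 and 2 were the highest of the 6 arrays and NT3 replicate 3 was the lowest, so that the groups overlapped at a log2 fold change of 0.19 ± 0.14 (SE). Fdps, which joins these units to farnesyl diphosphate, had 1311, 1494 and 1484 against 1449.9, 1553 and 1522. Its change of 0.079 ± 0.097 had the smallest standard error of the members, with a 95% interval of 0.91-fold to 1.23-fold.

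The other mevalonate genes lay closer together or moved with single arrays. Acat2, the cytosolic thiolase at the entry of the pathway, had 467, 615 and 504 in control and 467, 533 and 530.4 in NT3. Mevalonate kinase (Mvk) had 148, 176 and 183 against 175, 182 and 156, and its change of 0.019 ± 0.15 became 0.052 without control replicate 2. The other tested probe set of Mvk gave 0.29 (unadjusted limma p 0.171), or 0.16 without control replicate 2, with overlapping groups. A further Mvk probe set, too low to be tested, gave -0.56 and -0.037. Pmvk, the kinase after it, had 169, 245 and 205 against 208, 212 and 157. For Mvd, the decarboxylase that follows Pmvk, the order of the arrays differed between groups, with 107, 126 and 157 in control and 136, 118 and 104 in NT3. Acat2 and Pmvk had log2 fold changes of -0.045 and -0.10 with all arrays and 0.069 and 0.033 without control replicate 2, which held their highest signal.

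Among the 11 enzymes from squalene to cholesterol, 7 had higher and 4 lower means. Sqle, which puts oxygen on squalene and is a control point of the pathway, had 562, 616 and 478 in control and 497, 465 and 403 in NT3. The lowest control array, replicate 3, lay below the highest NT3 array, replicate 1, and the other NT3 arrays lay below all controls. The mean signal was 552 ± 69.3 in control ovaries and 455 ± 47.8 in treated ones (SD, n = 3), a log2 fold change of -0.28 ± 0.14 (SE) with an unadjusted limma p of 0.0708 and an adjusted p of 1.00. Without control replicate 2 the change was -0.19, and over single arrays left out it ran from -0.38 to -0.19, so that its sign was the same in all 6 of these fits.

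Fdft1, the synthase that makes squalene, stood just before Sqle in the pathway and had a higher mean in NT3. Its signals were 518, 517 and 442 in control and 526, 474 and 641 in NT3, with a change of 0.14 ± 0.14 and the highest array, NT3 replicate 3, clear of the rest. Lss, which closes the ring of lanosterol after Sqle, had 135, 161 and 141 against 139, 149.6 and 149. Its change was 0.0069 ± 0.15, or 0.081 without control replicate 2. The other probe set of Lss, too low to be tested, had 4.50, 3.30 and 5.00 against 6.10, 17.4 and 26.7. All its NT3 arrays lay above all controls, at 1.75, or 1.58 without control replicate 2. The means of the enzymes on either side of Sqle were thus not lower in NT3, and their difference from Sqle was not tested.

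Cyp51, the demethylase that acts on lanosterol, had 660.1, 903 and 759 in control and 828, 928 and 837 in NT3, and 1 control array, replicate 2, lay above 2 NT3 arrays. Its mean signal was 774 ± 122 in control ovaries and 864 ± 55.0 in treated ones (SD, n = 3), which makes 0.17 on the log2 scale ± 0.13 (SE). Without control replicate 2 the change was 0.29 ± 0.10 with an unadjusted limma p of 0.0223 and an adjusted p of 0.999, and all NT3 arrays were then above the remaining controls. The name of its probe set marks it as possibly shared between transcripts, and the gene's other probe set had 0.056 with all arrays and 0.20 without control replicate 2. Msmo1, the oxidase that removes further methyl groups, had 617, 705 and 830.3 against 722, 865 and 803, or 0.16 ± 0.13, with overlapping groups.

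The later enzymes differed little between the groups. Tm7sf2, a sterol reductase, had 246, 256 and 223 in control and 219, 258 and 221 in NT3. Ebp, the sterol isomerase, had 149, 192 and 161 against 147, 172 and 156, and Sc5d, a desaturase, had 260.3, 346 and 297 against 269, 355 and 302. In Ebp and Sc5d replicate 2 was the highest array of each group. Leaving out control replicate 2 moved Tm7sf2 from -0.060 to -0.018, Ebp from -0.075 to 0.029 and Sc5d from 0.037 to 0.14. Dhcr7, the last reductase of the pathway, had 641, 543 and 473 against 633, 674 and 472, with replicate 3 the lowest in both groups.

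Nsdhl and Hsd17b7, which act together in removing the methyl groups of the sterol ring, were lowest in control replicate 2. Nsdhl had 344, 249.6 and 334 in control and 309, 264 and 327 in NT3. Hsd17b7 had 448, 277 and 407 against 374, 368 and 406. Apart from control replicate 2, the controls of both genes lay above all NT3 arrays, and the log2 fold changes of -0.036 and 0.049 became -0.18 and -0.16. The other probe set of Nsdhl, with 128, 172 and 125 against 136, 103 and 138, was highest on control replicate 2. It gave -0.17, and -0.023 without that array, with overlapping groups. The other probe set of Hsd17b7 gave 0.016, and -0.25 without control replicate 2.

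**Figure D2:**
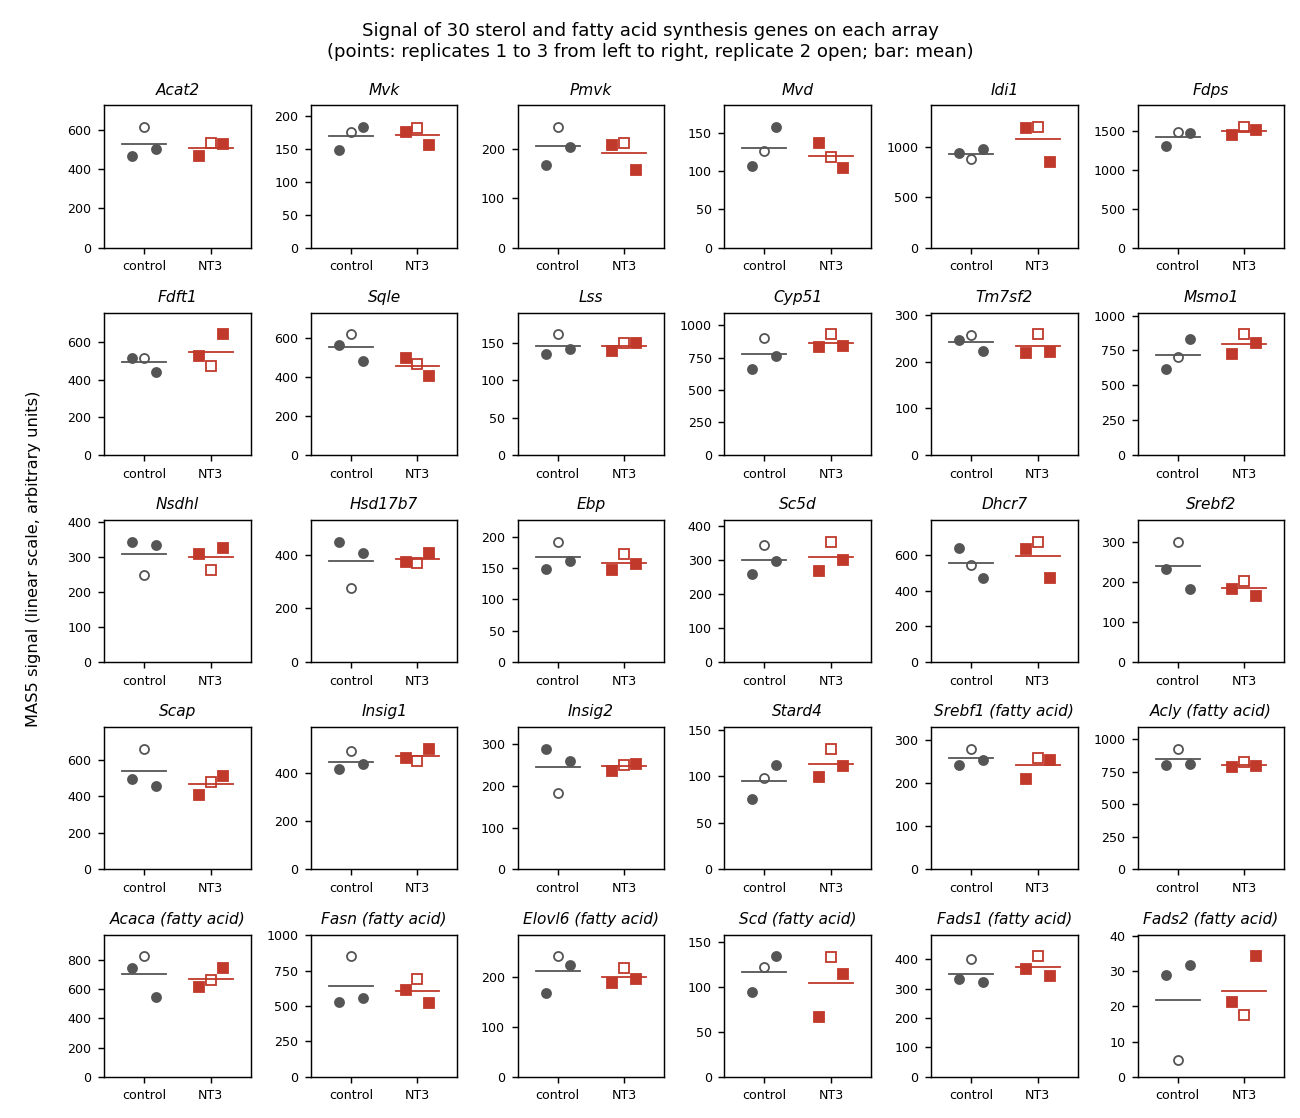
MAS5 signal (y axis, linear from 0) of the 30 genes on the 3 control arrays (grey circles) and the 3 NT3 arrays (red squares), with replicates 1 to 3 from left to right, replicate 2 open, and a bar at each mean. In all 30 panels the groups overlap, and the open control point stands far from the other controls in Srebf2, Scap, Fasn, Hsd17b7 and Insig2.

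The regulators included the member with the largest difference among those tested. Srebf2, which encodes SREBP2, the main activator of the sterol enzymes, had 232, 300.0 and 183 in control and 182, 203 and 166 in NT3. NT3 replicates 1 and 3 lay below all controls, replicate 1 only just, and NT3 replicate 2 exceeded control replicate 3. The mean was 238 ± 58.6 in control ovaries and 184 ± 18.5 in treated ones (SD, n = 3), a log2 fold change of -0.35 ± 0.19 (SE) with an unadjusted limma p of 0.0997 and an adjusted p of 1.00. Control replicate 2 held the highest signal, and the change was -0.17 without it. The other probe set of Srebf2, at signals of 1.10 to 4.40, was too low to be tested.

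Scap, the escort of the SREBP proteins, had its highest signal on the same array, with 498, 660.2 and 459 in control and 407, 482 and 511 in NT3. The 6 arrays gave -0.20 ± 0.16 on the log2 scale, and leaving out control replicate 2 gave -0.040. The other probe set of Scap moved the opposite way, from -0.10 to -0.27. Insig1, which retains the Scap complex and is itself a target of SREBP factors, had 418, 493 and 438 against 465, 452 and 502, or 0.076 ± 0.11, and 0.14 without control replicate 2. Its paralog Insig2 had 288, 183 and 260.3 against 236, 250.1 and 253, and its change of 0.039 became -0.15 without control replicate 2, the lowest array. Stard4, which carries cholesterol between membranes, had 76.0, 97.8 and 112 against 99.5, 129.5 and 111, and its 0.26 ± 0.20 was the highest fold change of the tested members, again with overlapping groups. Its other tested probe set went the other way, at -0.091, and -0.14 without control replicate 2. A further probe set of Stard4, too low to be tested, gave 0.12 and 0.19.

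In the fatty acid branch all 4 genes of the synthesis steps had slightly lower means in NT3, at log2 fold changes of -0.070 to -0.051, and control replicate 2 was the highest array for each of them. Acly, which supplies cytosolic acetyl-CoA from citrate, had 801, 926 and 812 in control and 790.3, 828 and 796 in NT3. Acaca, the carboxylase that makes malonyl-CoA, had 743, 824 and 546 against 614, 660.3 and 741. The fatty acid synthase gene Fasn had 526, 851 and 554 against 609.6, 688 and 523. For Elovl6, which lengthens the chain of palmitate, the signals were 168, 241 and 224 against 188, 217 and 196.

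Without control replicate 2 the synthesis genes gave the other picture, with 3 of 4 higher in NT3. The log2 fold changes were then 0.073 for Acaca, 0.16 for Fasn and 0.044 for Elovl6, and -0.0034 for Acly. The branch median of -0.060 became 0.021 without that array. The standard deviation of the branch median between replicates was 0.11, larger than either value. Without NT3 replicate 1 the median was 0.00038. Acaca, Fasn and Elovl6 thus no longer had lower values without control replicate 2, while Srebf1, Acly and Scd still had, Acly only just. Other arrays mattered as well. Leaving out NT3 replicate 1 gave 0.011 for Acaca and 0.095 for Scd, and leaving out NT3 replicate 3 gave 0.043 for Fasn. The other probe set of Srebf1 was higher in NT3, at 0.069, and 0.034 without control replicate 2.

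Srebf1, whose SREBP1 products mainly activate fatty acid genes, had 242, 279 and 254 in control and 210.4, 258 and 254 in NT3, or -0.10 ± 0.14, and -0.048 without control replicate 2. Among the desaturases, Fads1, which acts on polyunsaturated fatty acids, had 334, 399.6 and 321 against 366, 410.3 and 343, or 0.089 ± 0.13, and 0.19 without control replicate 2. Scd, the stearoyl-CoA desaturase gene, varied more, with 94.0, 122 and 134 against 66.4, 133 and 114. Its change of -0.20 ± 0.27 had the widest interval, from 0.57-fold to 1.33-fold, and NT3 replicate 1 was far below the other arrays. Fads2 was low on all arrays, at 29.0, 4.80 and 31.8 against 21.1, 17.5 and 34.2, and is given without a test. The 6 arrays gave it 0.50 on the log2 scale, which turned to -0.38 when control replicate 2, the lowest, was left out.

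**Figure D3:**
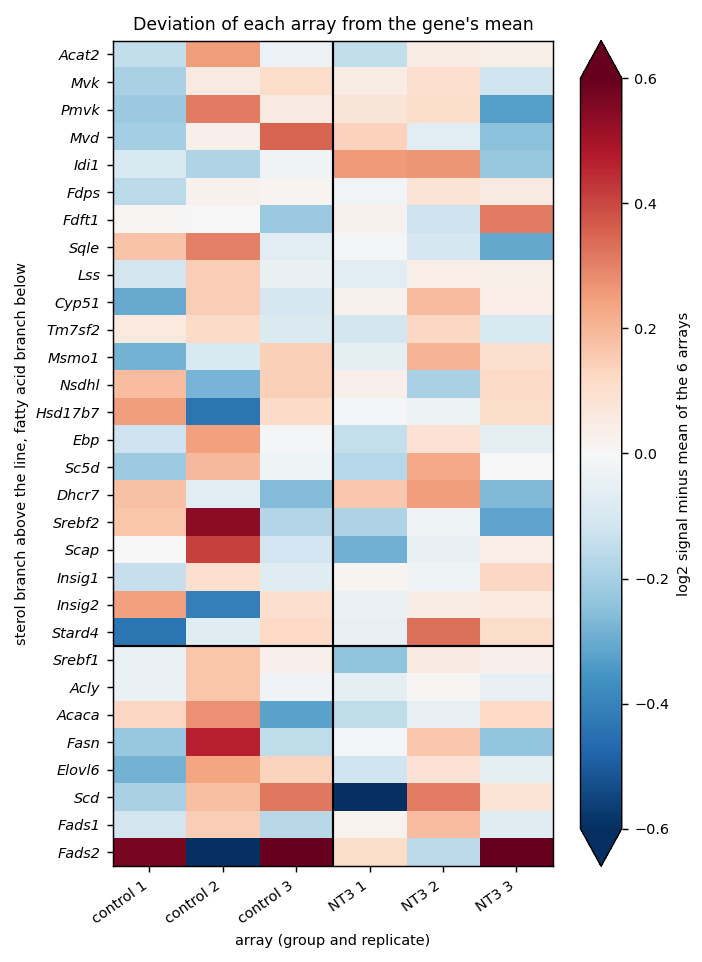
Deviation of each array's log2 signal from the mean of the 6 arrays for the 30 genes (rows) and the 6 arrays (columns), red higher and blue lower, with the scale ending at 0.6 in either direction. Control replicate 2 has strong colours in several genes, red in Srebf2, Scap and Fasn and blue in Hsd17b7 and Insig2. NT3 replicate 1 in Scd exceeds the scale on the blue side, and Fads2, at low signal, exceeds it too.

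Control replicate 2 was the highest array for 12 and the lowest for 3 of the 29 tested members, or 41.4% and 10.3%, against 35.8% and 22.6% of all genes tested. Its median deviation was 0.076 in the sterol branch and 0.17 in the fatty acid branch, against 0.064 over all genes tested. In the sterol branch other arrays departed more from all genes tested. Control replicate 1 had -0.11 against -0.0073, and NT3 replicate 2 had 0.062 against 0.0028. The sterol median of 0.028 was -0.013 without control replicate 1 and -0.0074 without NT3 replicate 2. The probe sets of a gene did not always show the same shift on control replicate 2. Compared with the mean of the other 5 arrays, Fasn was higher by 0.56 and 0.48 on its 2 probe sets (log2), and Hsd17b7 had -0.53 and -0.64. In contrast, Acaca had 0.33 on the probe set used and -1.20 on the other, and Scap 0.49 and -0.34. Of 15 further tested probe sets, 7 shifted to the same side as the probe set used and 8 to the opposite side. The part of RNA quality in these shifts was not tested.

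Across the whole table, arrays that carry equal numbers tended to deviate from their group means in the same direction, so that differences within numbered pairs were also examined. Sqle was lower in NT3 in all 3 pairs, by log2 differences of -0.18, -0.41 and -0.25. A fit that blocks on this number gave Sqle a change of -0.28 ± 0.11 (SE), at an unadjusted limma p of 0.0311 and an adjusted p of 1.00. Srebf2 was likewise lower in all 3 pairs, at -0.35, -0.56 and -0.14, with an unadjusted p of 0.0385 and an adjusted p of 1.00 in the blocked limma fit. In the blocked fit without control replicate 2 neither was under 0.05, with -0.21 and an unadjusted limma p of 0.0608 for Sqle and -0.25 and 0.116 for Srebf2, at adjusted p-values of 0.982 and 0.991. With all 6 arrays these were the 2 members with an unadjusted p under 0.05 in that fit, where 2.03% of all genes had one and 0 genes had an adjusted p under 0.05.

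In all, 8 of 29 members moved in 1 direction in the 3 pairs, against 21.2% of all genes. Of the 8, 4 were lower, against 11.6% of genes, and 4 higher, against 9.69%. Ebp and Acly were lower in each pair, besides Sqle and Srebf2. Cyp51, at 0.33, 0.039 and 0.14, Fdps, at 0.15, 0.056 and 0.037, and Sc5d and Fads1 were higher in each pair. Other members changed sides, as Mvd did with 0.35, -0.085 and -0.59.

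**Figure D4:**
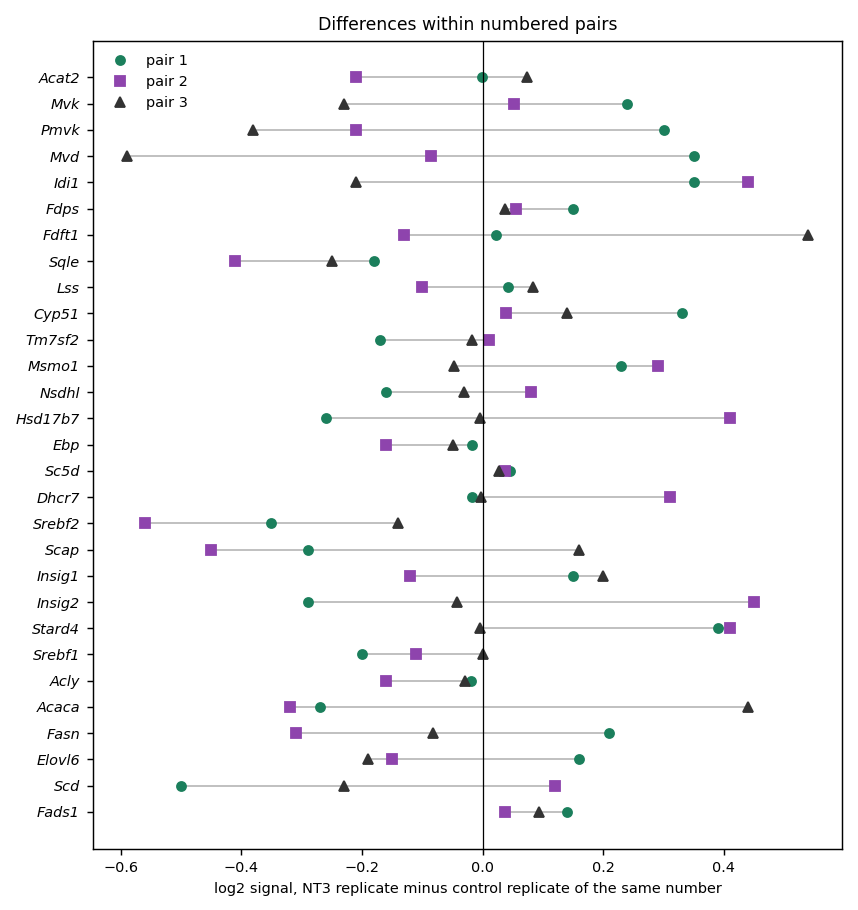
Difference in log2 signal (x axis) between the NT3 and the control array of the same replicate number, for the 29 tested genes, with a circle, square and triangle for pairs 1, 2 and 3. All 3 points of Sqle and Srebf2 lie left of 0 and all 3 of Cyp51 lie right of it, while those of most genes span 0.

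Leaving out control replicate 2 did not bring the members over the threshold of the test. Limma then called 0 of 29 at an adjusted p under 0.05, and Cyp51 alone had an unadjusted p under 0.05, where 2.69% of all genes had one. Groups without overlap were then found in 6 of 29 members, against 17.0% of genes. Cyp51, Insig1 and Fads1 were higher in NT3, where 9.47% of genes were, and Nsdhl, Hsd17b7 and Insig2 lower, where 7.56% were. With the block as well, Fdft1 (0.28, unadjusted limma p 0.0398) and Cyp51 (0.24, unadjusted p 0.0293) were under 0.05, where 4.36% of genes were, with adjusted p-values of 0.929 and 0.908. On the remaining 5 arrays, unblocked, 14 of 22 sterol genes were higher, with a median of 0.060, against 0.0049 over all genes. Among the tested members, 8 had the opposite sign of their value with 6 arrays.

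Further probe sets were available for 16 of the 30 genes. Of 19 such probe sets, 11 had the direction of the probe set used and 8 the opposite one, and none of the 15 tested had an unadjusted limma p under 0.05. Idi1, at 0.063, and Fdft1, at 0.18, had the same direction on both probe sets. For Acaca the second probe set gave 0.34 where the first gave -0.051, and for Insig2 the values were -0.073 and 0.039. The Acaca values became -0.074 and 0.073 without control replicate 2, and the Insig2 values -0.27 and -0.15.

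Other genes of these pathways gave the same count of 0 calls. Of 14 further genes of sterol and isoprenoid synthesis that were found, 10 were higher and 4 lower, with a median of 0.033, or 0.059 without control replicate 2. The ubiquinone synthesis gene Coq2, which uses an isoprenoid made from mevalonate, had the lowest p of these, with 96.3, 98.7 and 123 in control and 136, 150.4 and 119.9 in NT3, or 0.36 ± 0.18. The farnesyltransferase subunit gene Fntb had -0.24 ± 0.17. Genes of SREBP processing and feedback had a median of -0.052 over 12 genes, 5 higher and 7 lower, and in 3 of the 12 the groups did not overlap, against 5.74% of genes tested. Fbxw7, whose ubiquitin ligase marks SREBP proteins for degradation, had 87.6, 89.6 and 93.5 against 113, 103 and 115. All NT3 arrays of Fbxw7 lay above all controls, at 0.29 ± 0.16 and an unadjusted limma p of 0.107. Rnf139, another ubiquitin ligase gene of this system, had 0.21 ± 0.12.

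Genes of cholesterol uptake, efflux and storage had a median of 0.020, with 10 of 19 higher and 9 lower, and of -0.017 with 9 higher and 10 lower without control replicate 2. The oxysterol-binding protein gene Osbp had -0.19 ± 0.12, and the sterol carrier gene Stard5 -0.17 ± 0.13. Genes of fatty acid supply, elongation and activation had a median of -0.011, with 14 of 29 higher and 15 lower, and of 0.015 with 17 higher and 12 lower without control replicate 2. Elovl2, an elongase of polyunsaturated fatty acids, had 122, 113 and 151 in control and 72.7, 117 and 112 in NT3, or -0.37 ± 0.23. Mcat, of mitochondrial fatty acid synthesis, had 289, 324 and 279 against 272, 233 and 277, with every NT3 array below every control, at -0.19 ± 0.13. No gene of these lists had an adjusted or unadjusted limma p under 0.05.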

How the data were processed

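RNA of 6 samples, 3 control and 3 NT3, was measured on Affymetrix arrays, and the sample titles gave each array's group and number. The authors deposited 1 intensity per probe set on a linear scale, made with MAS5 per the submitters' processing notes. No version was stated there. The 57 control probe sets were removed and log2 was taken of the rest, with 0.1 as the floor for 5 probe sets holding a 0. Probe sets below the 40th percentile of mean log2 signal (5.37) were left out. The remaining 18625 were tested with limma 3.58.1 in R 4.3.3 (lmFit, eBayes with an intensity trend, 2-sided, Benjamini-Hochberg at 0.05) without a block. The fit was tested on simulated data.

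Gene names came from the platform's annotation, which gave 1 symbol to 20826 probe sets, several to 436 and none to 9780, and the Entrez identifiers of all 30 genes were in the RefSeq table of GRCr8 under the same symbols. Medians run over all genes found, also those below the filter. Genes and lists were chosen with earlier results of these data known. All found members are named, and from each other pathway list the 2 tested genes with the lowest p; marker lists are given by counts and summed signal, with single markers named as examples of their range, chosen after their values were seen. The 3′ to 5′ ratios came from the control probe sets.

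Deviations from the group means correlated at 0.23, 0.247 and 0.222 between arrays of equal number and at most at 0.029 otherwise. Deviations within a group cancel out, so that positive values at equal numbers lower the others by construction, and this contrast is partly fixed. The numbers were taken to pair the samples on these correlations, which are evidence of the data, not of the labels. The alternatives were the block, quantile normalization, median centring, other filters, an offset of 16, no trend, array weights, each array left out, both arrays numbered 2 left out, and the mean of all probe sets.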

Additional observations from a re-analysis of the deposited data

How the results depend on the processing

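With 3 arrays a group, the 95% interval of 72.3% of the genes tested lay within 1.5-fold, but no gene passed adjustment, and for low signals such as those of Fads2 no limit was set. Members called at an adjusted limma p under 0.05 numbered 0 under every alternative. With the replicate number as a block, limma called 0 probe sets, and unadjusted p-values under 0.05 rose from 240 probe sets to 401 and from 0 members to 2. The block changed no other call. Without control replicate 2 and with the block, 4 probe sets passed, of which 3 have no symbol and 1 is of Hnrnpa2b1 (log2 fold change -0.65), named after its values were seen. The unadjusted count was 752 with no filter, 123 with the filter at the 60th percentile, 377 with no trend, 585 with array weights, 514 without both arrays numbered 2, 962 with the block without control replicate 2, and 176 to 656 (656 without control replicate 2, 420 without control replicate 3) with single arrays left out. Members with an unadjusted p under 0.05 numbered 0 to 2 with single arrays left out.

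Members whose groups did not overlap numbered 1 to 6 with single arrays left out (6 without control replicate 2, 5 without control replicate 3), 10 without both arrays numbered 2, 6 with the block without control replicate 2, and 2 with the mean of all probe sets, against 0. Of all genes tested, 17.0% did not overlap without control replicate 2, 17.2% without control replicate 3, 27.0% without both arrays numbered 2 and 6.08% with the mean of all probe sets, next to 20.7%, 17.2%, 34.5% and 6.90% of the 29 members tested; fewer arrays overlap less often by construction. Further probe sets with the direction of the one used numbered 5 (without NT3 replicate 2) to 14, against 11. The branch medians moved by less than their spread between replicates under all alternatives, from -0.013 to 0.060 (sterol) and from -0.13 to 0.021 (fatty acid).

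Fold changes of several members reversed, among them that of Srebf2 (-0.35), and the cause was not tested. The untested Fads2 went from 0.50 to -0.11 with array weights and -0.18 without both arrays numbered 2. With array weights the log2 fold change was 0.014 for Acat2, 0.011 for Pmvk, -0.092 for Hsd17b7, -0.093 for Insig2, 0.0094 for Acaca, 0.092 for Fasn and 0.00059 for Elovl6. Without both arrays numbered 2, and equally with the block without control replicate 2, it was 0.036 for Acat2, -0.13 for Hsd17b7, -0.0098 for Dhcr7, -0.16 for Insig2, 0.083 for Acaca and 0.064 for Fasn. With the mean of all probe sets it was -0.084 for Mvk, 0.039 for Srebf2, -0.017 for Insig2, 0.14 for Acaca and 0.00059 for Elovl6. For Mvk and Srebf2 this mean includes a probe set at signals under 5. Lss kept its sign but went from 0.0069 to 0.88 with this mean, which includes its probe set at signals of 3.30 to 26.7. With single arrays left out, 16 members took both signs, 15 of them tested. The values ran from -0.13 to 0.069 for Acat2, -0.073 to 0.085 for Mvk, -0.24 to 0.040 for Pmvk, -0.24 to 0.037 for Mvd, -0.044 to 0.081 for Lss, -0.18 to 0.054 for Nsdhl, -0.16 to 0.19 for Hsd17b7, -0.15 to 0.029 for Ebp, -0.069 to 0.14 for Sc5d, -0.0085 to 0.25 for Dhcr7, -0.15 to 0.17 for Insig2, -0.22 to 0.073 for Acaca, -0.19 to 0.16 for Fasn, -0.22 to 0.044 for Elovl6, -0.40 to 0.095 for Scd and -0.38 to 0.98 for Fads2.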

Other observations

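Fatty acid oxidation, which breaks down what the synthesis genes make, showed as little difference. Of 21 genes found, 11 were higher and 10 lower in NT3, and the median of their log2 fold changes was 0.014, or 0.048 without control replicate 2. Echs1, the hydratase of the oxidation cycle, had 429, 437 and 366 in control and 459, 461 and 453 in NT3, so that every NT3 array lay above every control, at 0.16 ± 0.12 (SE) and an unadjusted limma p of 0.193. Etfa, which passes electrons from this cycle to the respiratory chain, had 0.14 ± 0.13, or 0.069 without control replicate 2. Limma called 0 of the 20 tested genes, and 0 had an unadjusted p under 0.05.

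A list around steroid synthesis, which uses cholesterol, had 11 genes found, not all of them genes of enzymes. Of these, 7 passed the signal filter. The list had 3 genes higher and 8 lower, with a median of -0.12, and -0.27 without control replicate 2. Among the 7 tested genes the median was -0.020. Lhcgr, the luteinising hormone receptor gene, had 45.1, 49.8 and 56.3 against 26.5, 36.6 and 50.0, near the lower limit of testing, with -0.46 ± 0.28, and Nr5a1, the transcription factor gene of steroidogenic cells, had -0.12 ± 0.21, or 0.0082 without control replicate 2. None had an unadjusted limma p under 0.05. The counts and medians of this list include 1 gene, Inha, that is also a granulosa marker and encodes no steroid enzyme.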
